A study of Mus musculus with 3 samples.

Results

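The genes described here are interleukin 10 (Il10), the chains of its receptor (Il10ra and Il10rb) and 4 nuclear proteins known to act downstream of it (Bcl3, Nfil3, Sbno2 and Etv3). They were taken by gene symbol, with no threshold on a value, and make up 7 of the 55536 annotated genes measured. The choice of these genes, and of the gene lists below, was made with earlier results of these data known. The libraries hold total RNA from the cytosol of primary macrophages (labelled BMDM, that is, grown from bone marrow; strain C57BL/6J), depleted of ribosomal RNA. All 3 libraries form a single group: the cells received 100 ng/ml Lipid A for 12 h, were washed free of it for 12 h, and met 100 ng/ml Lipid A again for 90 min. No untreated, once-stimulated or nuclear samples were analysed here, so a level below is the level after the repeated stimulation and no change caused by Lipid A can be read from it.

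The labels number the libraries as biological replicates 1, 2 and 3 and give the same donor record for each. They do not state if the libraries came from separate animals or cultures, so the spread is one between libraries and not between recorded animals. Neither sex nor age is given. The libraries held 40730514, 70484996 and 49726063 expected counts in the order 1, 2, 3, and each pair differed far beyond counting noise, with a chi-square per degree of freedom of 119 to 179. All 7 macrophage markers examined were detected, with a summed level of 4781 to 5444 TPM (the deposited abundance unit, a count corrected for transcript length and scaled to the same total in each library). The sums were 1.07 to 1.80 TPM over 5 B cell markers, 0.11 to 0.24 TPM over 5 T cell markers, 0.26 to 0.32 TPM over 4 dendritic cell markers and 0.01 to 0.11 TPM over 4 mast cell markers. The 5 neutrophil markers summed to 7.72 to 12.7 TPM, all but a small part from S100a8 and S100a9, while Ly6g had no count in any library. Cd3g and Mcpt4 had none either.

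As background, interleukin 10 is a cytokine that macrophages release after they sense bacterial products and that acts back on them to restrain inflammatory gene expression. Il10ra binds the ligand with high affinity and recruits the kinase Jak1. Il10rb recruits Tyk2 and is shared with receptors for interleukin 22 and the lambda interferons. The receptor activates Stat3, and the anti-inflammatory response needs new transcription. Among the proteins linked to it are Bcl3, an atypical nuclear inhibitor of NF-kappaB that binds p50 and p52 dimers, and Nfil3, a basic leucine zipper repressor. Sbno2 is a corepressor of the strawberry notch helicase family and Etv3 an ETS-domain repressor.

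The annotated starts of Sbno2 and Bcl3 are shown first, because transcripts from 3 different starts shared the Sbno2 signal. Not all of these starts are covered by the sequences shown. Promoter sequences came from RefSeq (GRCm38.p6), in which 4 of the 7 genes had an entry: Bcl3, Nfil3 and Etv3 with 1 window each and Sbno2 with 3. Each window of 300 bases runs from 250 before to 50 after a start site, and the 250 bases before it are printed 5′ to 3′ on the strand of the gene. Capitals mark matches to the motifs searched on both strands: TTCNNNGAA (STAT type), GGG and CC with any 5 bases between them (NF-kappaB type), TGACGTCA (the cyclic AMP response element), TTANGTAA (NFIL3 type) and CCGGAAGT (ETS type). The Sbno2 windows lie at chr10:80102703-80102952, chr10:80101188-80101437 and chr10:80075440-80075689, and the Bcl3 window at chr7:19822756-19823005, all on the minus strand. The last 19 bases of the first Sbno2 window and the last 15 bases of the Bcl3 window lie in annotated exons of the same gene.
Sbno2 window 1: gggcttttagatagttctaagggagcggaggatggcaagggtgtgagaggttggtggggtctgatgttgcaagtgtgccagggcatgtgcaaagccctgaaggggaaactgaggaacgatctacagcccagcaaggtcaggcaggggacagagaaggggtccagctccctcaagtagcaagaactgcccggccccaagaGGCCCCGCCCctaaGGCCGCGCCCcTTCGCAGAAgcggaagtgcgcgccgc
Sbno2 window 2: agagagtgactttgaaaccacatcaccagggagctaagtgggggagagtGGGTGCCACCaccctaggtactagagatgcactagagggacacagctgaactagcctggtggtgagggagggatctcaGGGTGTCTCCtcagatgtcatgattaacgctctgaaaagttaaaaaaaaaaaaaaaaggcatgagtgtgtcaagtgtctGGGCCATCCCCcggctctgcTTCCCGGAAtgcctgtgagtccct
Sbno2 window 3: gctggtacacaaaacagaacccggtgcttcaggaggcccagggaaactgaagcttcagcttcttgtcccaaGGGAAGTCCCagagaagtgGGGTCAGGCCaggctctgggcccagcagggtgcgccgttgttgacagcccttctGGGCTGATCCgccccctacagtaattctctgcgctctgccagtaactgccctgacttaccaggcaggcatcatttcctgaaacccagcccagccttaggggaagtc
Bcl3 window 1: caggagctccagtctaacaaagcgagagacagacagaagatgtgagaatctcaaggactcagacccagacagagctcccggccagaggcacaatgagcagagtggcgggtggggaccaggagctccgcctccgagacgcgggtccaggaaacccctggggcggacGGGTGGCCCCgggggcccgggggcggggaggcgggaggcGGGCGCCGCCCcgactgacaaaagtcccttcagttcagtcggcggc

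Sbno2 windows 1 and 2 each held a STAT-type match, TTCGCAGAA at -26 to -18 and TTCCCGGAA at -24 to -16 from their start sites, and window 3 held none. Of all 32851 windows of this length in the table, 8.30% held a STAT-type match. NF-kappaB-type matches stood in all 3 Sbno2 windows and in the Bcl3 and Etv3 windows, but this loose pattern occurs in 50.8% of all windows. The 10 letters GGGAAGTCCC were common to Sbno2 window 3, at -179 to -170, and the Bcl3 window, at positions 3 to 12 with the start site as 1; this decamer was picked out after the matches were seen and occurs in 0.137% of all windows. An ETS-type match, present in 3.89% of all windows, stood at positions 22 to 29 of Sbno2 window 1, on the transcribed side, with the start site as 1. The Nfil3 window held no match, and none of the 6 windows held TGACGTCA (1.79% of all windows) or TTANGTAA (2.32%). These matches are letters in a window and were not tied to any binding.

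All 7 genes were detected, meaning 1 TPM or more in every library, where 40.1% of 22028 protein-coding genes and 16.7% of all annotated genes met the same condition. From the highest to the lowest the order was Il10rb, Etv3, Il10ra, Bcl3, Sbno2, Nfil3 and Il10. The receptor chains and Etv3 thus stood among the more abundant messages of these cells, and the cytokine itself stood below the median of the detected protein-coding genes. The median level of the 7 was 25.3 TPM, beside 8.51 TPM over the 8838 detected protein-coding genes.

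**Figure D1:**
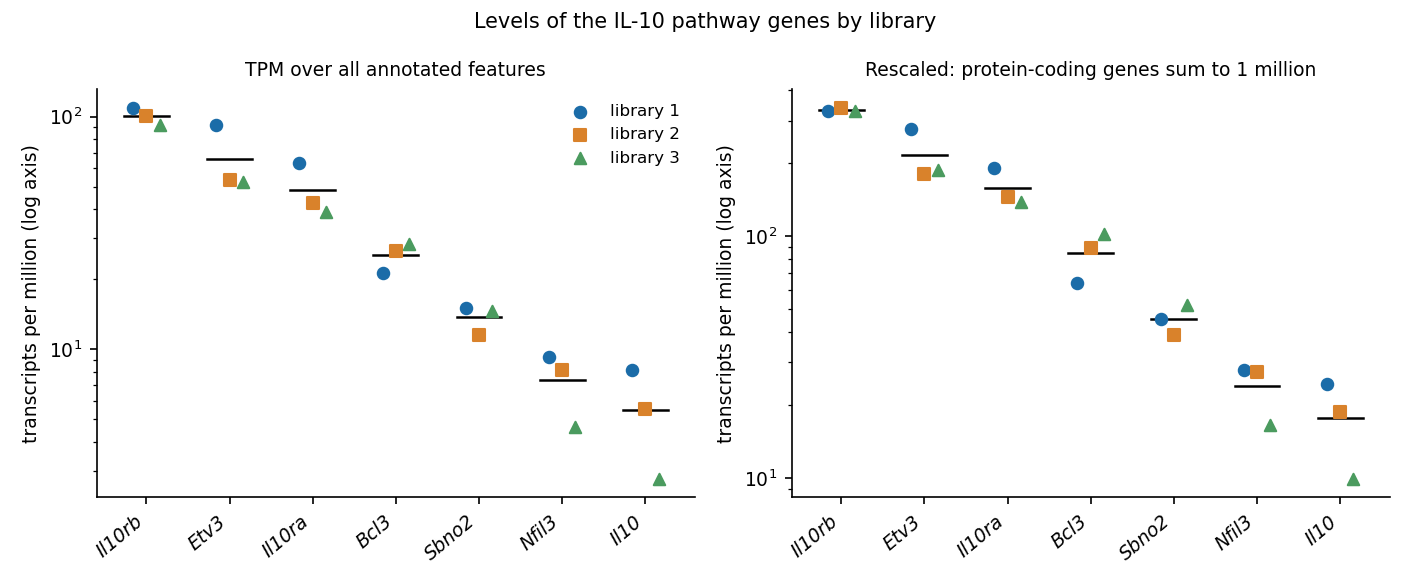
Level of each gene in each library, in TPM as deposited (left) and rescaled so that protein-coding genes alone make up the total in each library (right), on log axes, with a bar at the mean of 3 libraries. Il10rb lies highest near 100.6 TPM and Il10 lowest near 5.47 TPM; on the right the 3 Il10rb values fall close together, between 329.4 and 339.6, while those of Il10 stay spread between 9.91 and 24.5.

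Il10 (ENSMUSG00000016529.5, chr1:131019845-131024974, plus strand), the ligand, measured 8.13, 5.52 and 2.77 TPM in libraries 1, 2 and 3, from 543, 711 and 264 counts. Library 1 was thus the highest and library 3 the lowest, 2.94-fold apart. The mean was 5.47 ± 2.68 TPM (SD, n = 3), and 36.3% of detected protein-coding genes lay below it. In bulk RNA, fewer cells with a message and less message per cell cannot be told apart. Il10 has a single annotated transcript of 5 exons, so no choice of isoform enters its level. Protein-coding genes took 33.3%, 29.7% and 28.2% of all TPM in the libraries, and on a scale where protein-coding genes alone make up the total, Il10 read 24.5, 18.7 and 9.91, with the same order of libraries.

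Variation between libraries was tested for every gene with a negative binomial fit in edgeR that takes the spread usual for genes of that abundance as its reference. For Il10 this reference was a coefficient of variation of 0.159. Il10 passed the test with a Benjamini-Hochberg adjusted p of 0.0165 and ranked 162 of 12256 genes. Thus 1 of the 7 genes passed, beside 1.96% of all genes tested. The call rested on libraries 1 and 3: the adjusted p from the same edgeR test was 0.0235 without library 2, 0.276 without library 1 and 1.00 without library 3. The libraries also differed in the levels of several inflammatory genes, given below, and in the protein-coding share; the part of these in the Il10 difference was not tested.

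Il10ra (ENSMUSG00000032089.16, chr9:45253837-45269149, minus strand), the ligand-binding chain, measured 63.1, 42.7 and 38.8 TPM, a mean of 48.2 ± 13.1 TPM (SD, n = 3) that exceeded 88.5% of detected protein-coding genes. Il10rb (ENSMUSG00000022969.13, chr16:91406164-91425834, plus strand), the shared chain, measured 109.3, 100.4 and 92.1 TPM, a mean of 100.6 ± 8.62 TPM that exceeded 94.4% of them. The coefficient of variation of TPM was 8.57% for Il10rb, the lowest of the 7 genes, beside 27.1% for Il10ra and 49.0% for Il10. In a second quantification by the submitters, made directly from reads, Sbno2 was the lowest at 7.23%, with Il10rb at 9.65%. Neither chain passed the test of variation, both with an edgeR adjusted p of 1.00.

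In TPM, the shared chain exceeded the ligand-binding chain in every library. In expected counts, which also depend on transcript length, Il10ra was the higher in library 1 (12830 against 10894.4) and Il10rb in libraries 2 and 3. The log2 ratio of Il10ra to Il10rb was -0.79, -1.23 and -1.25, a mean of -1.09 ± 0.26 (SD, n = 3), so that Il10rb stood 2.13-fold higher at the mean. The ligand's message was far scarcer than that of its own chain, with a log2 ratio of Il10 to Il10ra of -2.96, -2.95 and -3.81. Libraries 1 and 2 were alike in this ratio and library 3 stood apart, at a mean of -3.24 ± 0.49. With 3 libraries an exact sign-flip test cannot give a two-sided p below 0.25, so these ratios and those below carry no p. Only the sign in each library and the spread are given.

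Il10ra exon 2 separates the annotated transcripts of the receptor chain. It covers chr9:45267100-45267220 on the minus strand, codes for protein and is 121 bases long, with capitals marking the 6 bases that Il10ra-202 leaves out at its 5′ end.
Il10ra exon 2: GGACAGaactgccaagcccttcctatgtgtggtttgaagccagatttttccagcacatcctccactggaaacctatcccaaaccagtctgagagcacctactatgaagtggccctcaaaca

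Il10ra-201, which holds the whole exon, took 96.4%, 96.8% and 97.2% of the gene's TPM. Il10ra-203 lacks the exon, whose length is not a multiple of 3, and is annotated as a target of nonsense-mediated decay; it took 3.02%, 2.89% and 2.24%. Il10ra-202 took 0.48 ± 0.11% (SD, n = 3). The second quantification gave means of 96.5%, 2.10% and 1.35% for the same 3 transcripts. Il10rb came almost wholly from Il10rb-201, at 97.4 ± 0.32% and 94.2 ± 0.71% in the 2 quantifications. Il10ra overlaps Gm20612 on the opposite strand and the hairpin Mir7086, neither above 1.29 TPM. Bcl3 overlaps Gm16175 and Gm16174 on the opposite strand, neither above 0.32 TPM. Il10rb overlaps Gm21970 on the same strand, at 0.09 TPM or less. No header or label states if strand was used in the counting.

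Etv3 (ENSMUSG00000003382.18, chr3:87525407-87540156, plus strand) was the most abundant of the nuclear effectors, at 92.0, 53.5 and 52.4 TPM. Library 1 stood apart from both others, and the mean was 66.0 ± 22.6 TPM (SD, n = 3), above 91.6% of detected protein-coding genes. It did not pass the test of variation in edgeR (adjusted p = 0.617). Its relative Erf, also an ETS-domain repressor, measured 2.81, 3.19 and 2.68 TPM. The log2 ratio of Etv3 to Erf was 5.03, 4.07 and 4.29, a mean of 4.46 ± 0.51, or 22.1-fold. Ddx20, a helicase known as a corepressor partner of Etv3, was at 2.38 ± 0.26 TPM.

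A pair of annotated Etv3 transcripts that share their coding sequence exactly made up nearly the whole of its signal. Etv3-205 took 85.7%, 84.6% and 83.6% and Etv3-202, which starts 171 bases further upstream, took 12.5%, 13.5% and 13.8%. Together they reached 97.9 ± 0.44%, and 95.7 ± 0.70% in the second quantification. Their shared coding sequence is 1539 bases long. Retained-intron transcripts made up 1.76 ± 0.31% of the gene.

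Bcl3 (ENSMUSG00000053175.17, chr7:19808462-19822770, minus strand) measured 21.2, 26.4 and 28.4 TPM, a mean of 25.3 ± 3.71 TPM (SD, n = 3). No other gene of the 7 had its lowest value in library 1, where the 6 others had their highest. On the protein-coding scale it read 64.0, 89.3 and 101.6, again lowest in library 1. Library 1 held the lowest value of 24.3% of all detected genes in TPM and of 57.9% on the protein-coding scale. The test of variation was not passed (edgeR adjusted p = 1.00). The proteins that Bcl3 binds are made from Nfkb1, at 42.3 ± 6.997 TPM, and Nfkb2, at 43.5 ± 6.07 TPM. Nfkbiz, another nuclear member of its family, was far higher, at 228.5, 180.3 and 121.6 TPM, and the log2 ratio of Bcl3 to Nfkbiz was -3.43, -2.77 and -2.10, a mean of -2.77 ± 0.67.

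The share of Bcl3 transcripts depended on the quantification. Bcl3-201, the full form of 9 exons, took 84.4%, 74.8% and 78.6%, and the short Bcl3-203 took 15.2%, 24.8% and 21.2%. In the second quantification Bcl3-203 took only 4.21%, 6.95% and 6.58%, with library 1 again the lowest. Bcl3-203 starts within the gene, and its annotated coding sequence is 342 bases long, beside 1344 in Bcl3-201. The transcripts thus differ by more than the bases shown next. Among the differences, Bcl3-203 lacks 126 coding bases at the head of exon 9. They are shown in capitals, followed by 24 bases that both transcripts hold, from chr7:19808907-19809056 on the minus strand.
Bcl3 exon 9: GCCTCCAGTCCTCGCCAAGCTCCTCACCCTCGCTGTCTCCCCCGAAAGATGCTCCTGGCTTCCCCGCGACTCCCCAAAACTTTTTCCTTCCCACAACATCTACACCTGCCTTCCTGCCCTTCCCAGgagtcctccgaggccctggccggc

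Sbno2 (ENSMUSG00000035673.10, chr10:80056992-80105571, minus strand) measured 15.0, 11.5 and 14.5 TPM, a mean of 13.7 ± 1.89 TPM (SD, n = 3). Library 2 was the lowest, and the test of variation was not passed (edgeR adjusted p = 1.00). Its paralog Sbno1 measured 18.4, 20.5 and 19.0 TPM and exceeded Sbno2 in each library, with a log2 ratio of Sbno2 to Sbno1 of -0.29, -0.83 and -0.39 and a mean of -0.50 ± 0.29. The log2 ratio of Sbno2 to Etv3 was -2.23 ± 0.38, lower than 0 in all 3 libraries.

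Of the 7 genes, Sbno2 had the lowest share for its leading transcript. Sbno2-209, the longest coding form, took 54.7%, 57.6% and 55.5%, and no RefSeq window covers its start. Sbno2-207, which starts 3183 bases downstream at the site of window 2, took 26.2%, 25.5% and 24.1%. Sbno2-203, a retained-intron transcript that starts a further 25748 bases downstream at the site of window 3, took 17.2%, 14.7% and 16.7%. Sbno2-201, which starts within 4 bases of the site of window 1, took 0.17 ± 0.29%. The windows with a STAT-type match stood at the start of Sbno2-207 and beside that of Sbno2-201, which was nearly absent.

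The second quantification kept the order of the 3 leading Sbno2 transcripts but gave less to the first, at 44.8 ± 0.83%, and more to the others, at 32.2 ± 0.85% and 20.0 ± 0.14%. Retained-intron forms of Sbno2 came to 17.6 ± 1.47% and 21.4 ± 0.59% in the 2 quantifications, compared with 1.76% and 3.95% for Etv3. The transcripts differ at both ends, so a share does not by itself give the use of a start. The annotated coding sequence is 3692 bases long in Sbno2-207 and 4047 in Sbno2-209, so they differ by more than the bases shown next. The length in Sbno2-207 is not a multiple of 3, so its annotated coding sequence is not a complete reading frame. Among the differences, Sbno2-207 lacks the first 3 bases of exon 29 (chr10:80058637-80058732, minus strand), the length of 1 codon, in capitals below.
Sbno2 exon 29: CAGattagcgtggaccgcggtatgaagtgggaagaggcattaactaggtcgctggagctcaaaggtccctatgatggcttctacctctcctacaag

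**Figure D2:**
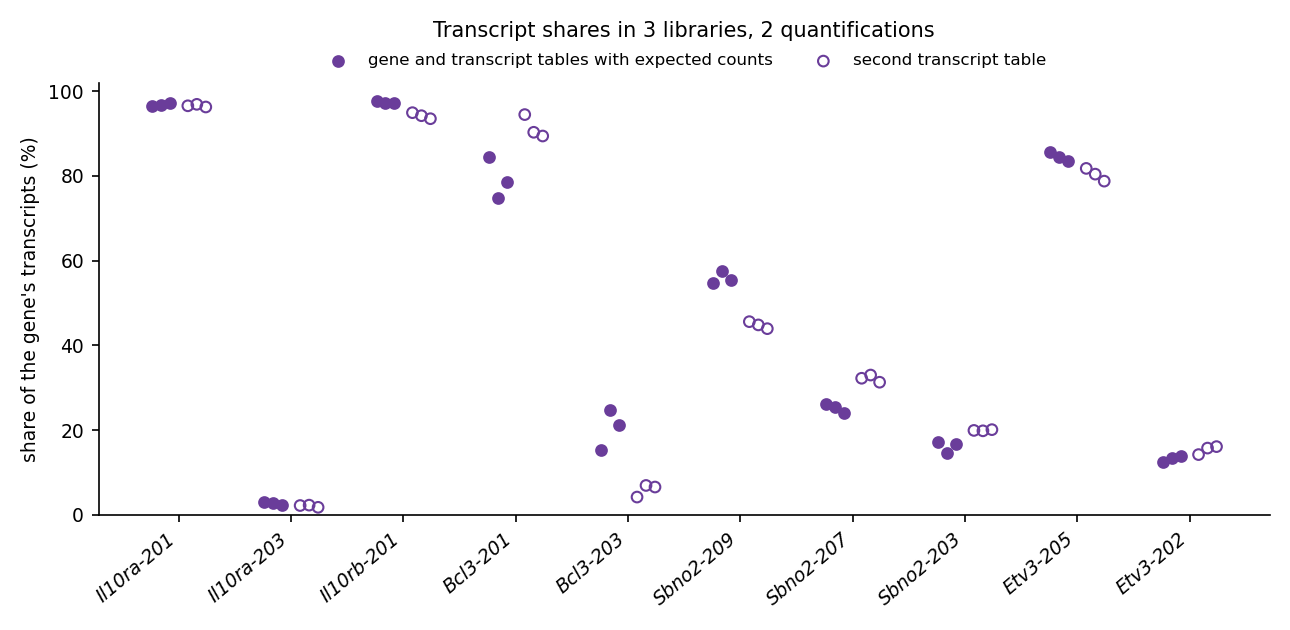
Share of each gene's transcripts, in percent, for the leading annotated transcripts in 3 libraries, from the quantification with expected counts (filled) and from the second one (open), with libraries 1, 2 and 3 from left to right in each set. Bcl3-203 lies between 15.2% and 24.8% in the first and between 4.21% and 6.95% in the second, the widest relative gap among the transcripts drawn.

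Nfil3 (ENSMUSG00000056749.7, chr13:52967209-52981073, minus strand) measured 9.27, 8.10 and 4.64 TPM from 1034, 1730 and 736 counts, a mean of 7.34 ± 2.41 TPM (SD, n = 3). Library 3 was the lowest, as for Il10, but the test of variation was not passed (edgeR adjusted p = 0.188). Like Il10 it has 1 annotated transcript. Among its relatives with a proline- and acid-rich domain, which bind similar sites but activate, Dbp measured 7.01 ± 1.67 TPM and Tef 4.67, 5.44 and 6.34 TPM, while Hlf was near 0. The log2 ratio of Nfil3 to Tef was 0.99, 0.57 and -0.45: Nfil3 exceeded Tef in libraries 1 and 2 and fell short of it in library 3. The mean of 0.37 ± 0.74 gave no stable order of these genes.

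Among the effectors the widest ratio was that of Nfil3 to Etv3, at -3.31, -2.72 and -3.50 on the log2 scale, a mean of -3.18 ± 0.40. Bcl3 exceeded Nfil3 in every library, with log2 ratios of 1.19, 1.70 and 2.61 and a mean of 1.84 ± 0.72. Neighbours in the order of the 7 levels kept their order in all 3 libraries. The mean log2 gap was 0.66 ± 0.36 from Il10rb to Etv3, 0.44 ± 0.11 from Etv3 to Il10ra and 0.90 ± 0.59 from Il10ra to Bcl3. It was 0.89 ± 0.36 from Bcl3 to Sbno2, 0.95 ± 0.61 from Sbno2 to Nfil3 and 0.50 ± 0.28 from Nfil3 to Il10. Across libraries the ranges of Etv3 and Il10ra overlapped, and so did those of Nfil3 and Il10, so these neighbours were ordered only within a library.

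**Figure D3:**
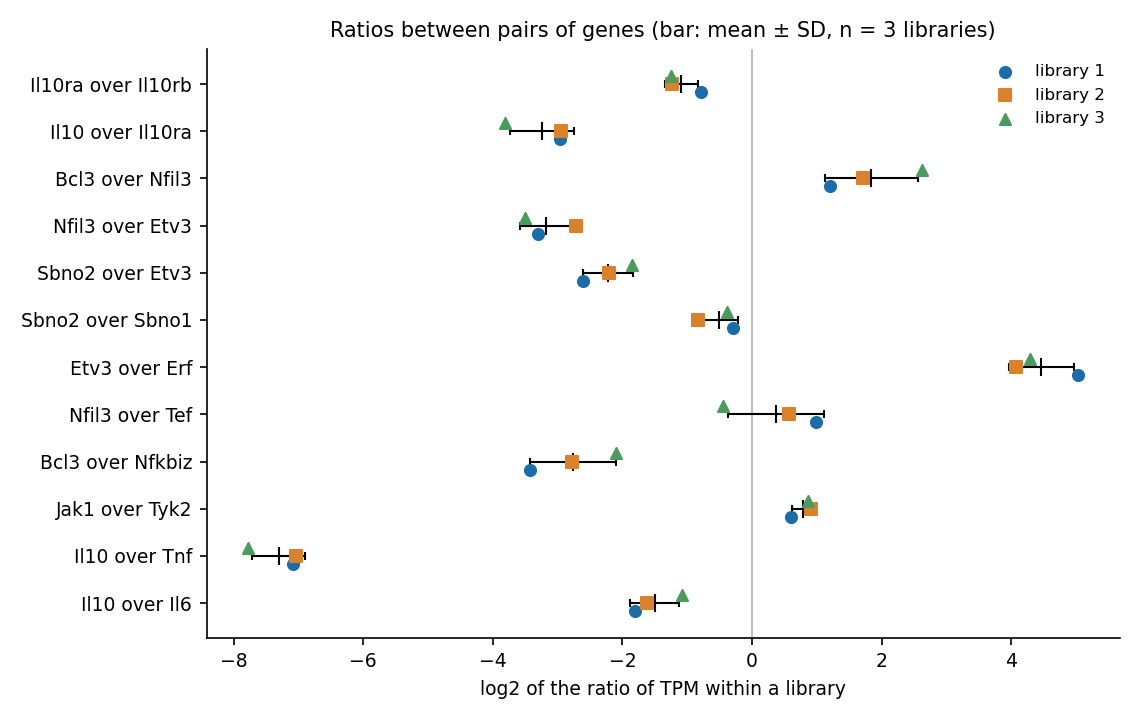
Log2 ratio of TPM within each library for 12 pairs of genes, with a bar for the mean ± SD of 3 libraries. The ratio of Nfil3 to Tef, from 0.99 to -0.45, crosses 0; the other 11 pairs keep 1 side of 0 in all 3 libraries.

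Around the receptor, all 6 genes of the proximal signalling list described here were detected and none of the 6 passed the test of variation. The median was 26.1 TPM. Jak1, the kinase on Il10ra, was at 40.3, 34.8 and 35.5 TPM and Tyk2, the kinase on Il10rb, at 26.7, 18.6 and 19.6 TPM, so that the kinase of the less abundant chain was the more abundant one (log2 ratio 0.79 ± 0.17). Stat3, the main factor downstream of the receptor, was at 36.3, 25.3 and 30.2 TPM, a mean of 30.6 ± 5.49 TPM (SD, n = 3). Socs3, a feedback inhibitor induced through Stat3, was at 136.2 ± 28.7 TPM, whereas Socs1 was at 1.40 ± 0.34 TPM and Pias3, an inhibitor of Stat3 binding to DNA, at 2.85 ± 0.27 TPM.

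None of the 11 other ligands and receptor chains of the interleukin 10 family was detected. Of these, 7 had no count in any library. An expected count of 3 per library was taken as the limit that such an absence leaves, which is a convention and not a hard maximum. Il20rb was the highest, at 1.14, 0.77 and 0.52 TPM, with Il19 next at 0.07 TPM in library 1 and 0 in the others. Il22ra1 and Ifnlr1, the chains that pair with Il10rb in the receptors for interleukin 22 and the lambda interferons, were both at 0 TPM. Il10ra was the only partner chain of Il10rb among those measured here that passed 1 TPM.

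Of 16 genes known to regulate Il10 transcription, 15 were detected, with a median of 9.94 TPM. Maf, a transcription factor that activates the Il10 gene, was the highest at 58.5, 48.8 and 63.3 TPM, and Mapk3 followed at 33.7 ± 3.49 TPM. Rps6ka5, a kinase of CREB, and Crtc3, a coactivator of CREB, were the lowest at 0.83 ± 0.17 and 2.52 ± 0.23 TPM. One of the 16 passed the test of variation, beside 1.96% of all genes: Cebpb, named here after its values were seen, at 52.1, 19.2 and 23.5 TPM with an edgeR adjusted p of 6.63e-05. Cebpb was high in library 1 and low in both others, whereas Il10 in library 2 stood between its values in libraries 1 and 3.

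Of 8 genes known to respond to interleukin 10 in macrophages, 6 were detected and none passed the test of variation. Their median was 72.3 TPM, above the 25.3 TPM of the 7 genes described here. Zfp36, which destabilises cytokine messages, was the highest at 235.1, 111.7 and 108.6 TPM (edgeR adjusted p = 0.0727), followed by Tnip3 at 140.6 ± 21.7 TPM. Ddit4, an inhibitor of mTORC1, and Arg2, a mitochondrial arginase, were the lowest at 0.23 ± 0.08 and 0.57 ± 0.30 TPM. Several of these genes are known to respond to Lipid A directly, and with 1 group such a response and one to interleukin 10 cannot be told apart.

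Among the 6 lists, variation was most frequent in that of cytokines and enzymes that interleukin 10 is known to restrain. Of its 11 genes, 9 were detected and 6 of the 9 tested passed, beside 1.96% of all genes. Ccl4 and Ccl3, the chemokines, were the highest at 1597.7, 688.1 and 553.6 TPM and at 1406.9, 707.5 and 531.8 TPM, with edgeR adjusted p of 0.00502 and 0.0328. Il6 was at 28.6, 16.98 and 5.85 TPM with an edgeR adjusted p of 1.21e-09. The other genes called were Ptgs2, the inducible cyclooxygenase, and Nos2 and Il12b; the last pair is named after its values were seen, with 12.2, 5.70 and 2.90 TPM for Nos2 and 18.2, 19.7 and 5.56 TPM for Il12b. All 11 genes of the list, called or not, had their lowest value in library 3, as did Il10 and 53.9% of all detected genes. On the protein-coding scale the 11 and Il10 were again lowest in library 3, beside 23.8% of detected genes. Il12a and Il23a, the lowest of the list, stood at 0.17 ± 0.06 and 0.24 ± 0.18 TPM.

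**Figure D4:**
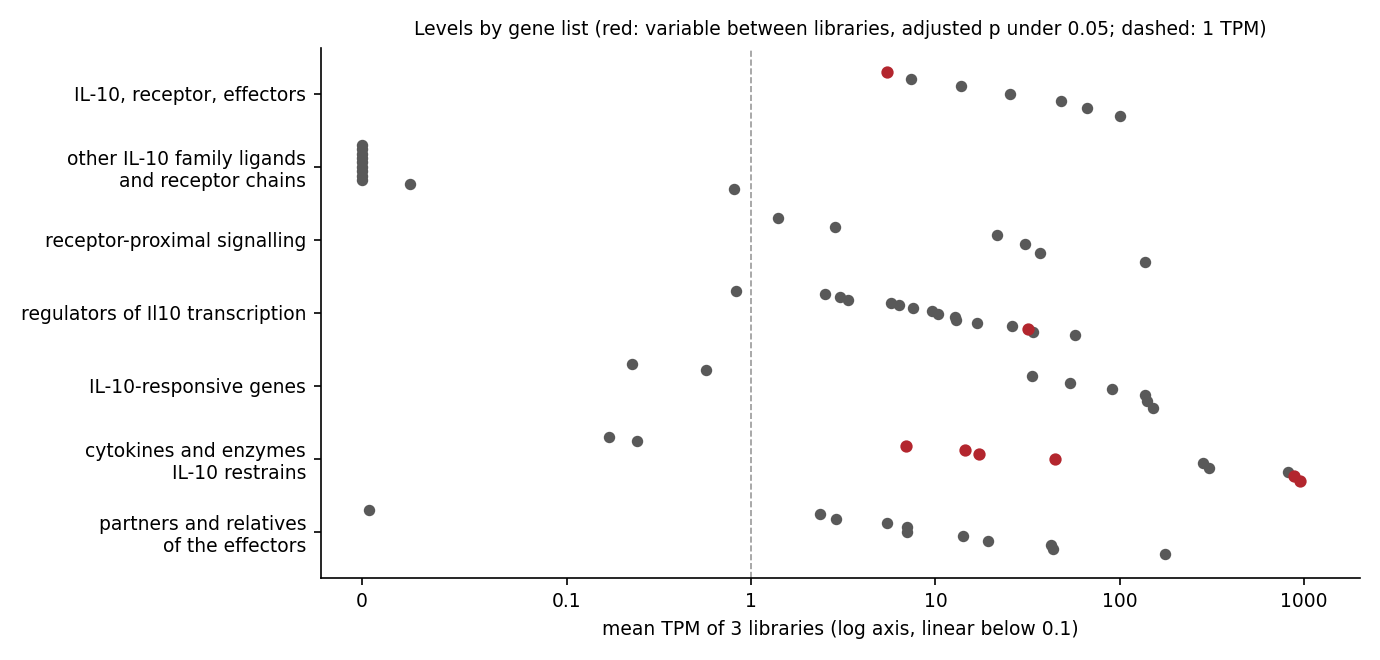
Mean TPM of 3 libraries for every gene of each list (log axis, linear below 0.1), with genes that varied between libraries in red and the detection threshold of 1 TPM dashed. Red points number 6 in the list of restrained cytokines and enzymes, 1 among the regulators of Il10 transcription (Cebpb) and 1 among the 7 genes described here (Il10).

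Set against Tnf and Il6, the pair of restrained cytokines chosen for a ratio, Il10 was the less abundant in every library. The log2 ratio of Il10 to Tnf was -7.09, -7.05 and -7.78, a mean of -7.30 ± 0.41 (SD, n = 3), or 158.0-fold less. The log2 ratio of Il10 to Il6 was -1.81, -1.62 and -1.08, a mean of -1.50 ± 0.38, or 2.84-fold less. Tnf, like Il10 and Il6, was lowest in library 3, where 53.9% of all detected genes had their lowest TPM. In that library Il10 was lower relative to Tnf and higher relative to Il6 than in the others.

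Which genes followed the same course over the libraries was measured as the root mean square distance between log2 TPM values, each centred on the gene's mean, over 3 libraries and 9275 other detected genes. The 3 genes closest to Il10 were Egr3, an immediate-early transcription factor, at a distance of 0.014, AA467197 at 0.031 and Ptgs2 at 0.042. Only 12 genes (0.129%) lay within 0.1 of Il10. For Il10rb, whose values hardly moved, 3394 genes (36.6%) lay that close, led by Ier3, Mtf2 and Hmg20b. With 3 libraries a close course is a description of these libraries.

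The closest genes to Il10ra were Mafk, Ptger4 and Sgcb, at distances of 0.0038 to 0.0085, and 4.42% of genes lay within 0.1. Those to Nfil3 were Hist1h4j, Ly6i and Gm26809, and 0.841% lay within 0.1. Those to Etv3 were Trim30c, Lpxn and Cysltr2 (1.76% within 0.1), those to Bcl3 were Gm49359, Lcmt2 and Scoc (5.70%) and those to Sbno2 were Dnajc13, Ggta1 and Rps23-ps1 (5.87%). Among the 7 genes themselves, Il10ra and Etv3 ran closest, at a distance of 0.088, and Il10 and Bcl3 farthest apart, at 0.81. Il10 lay 0.23 from Nfil3, its nearest among the 7.

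**Figure D5:**
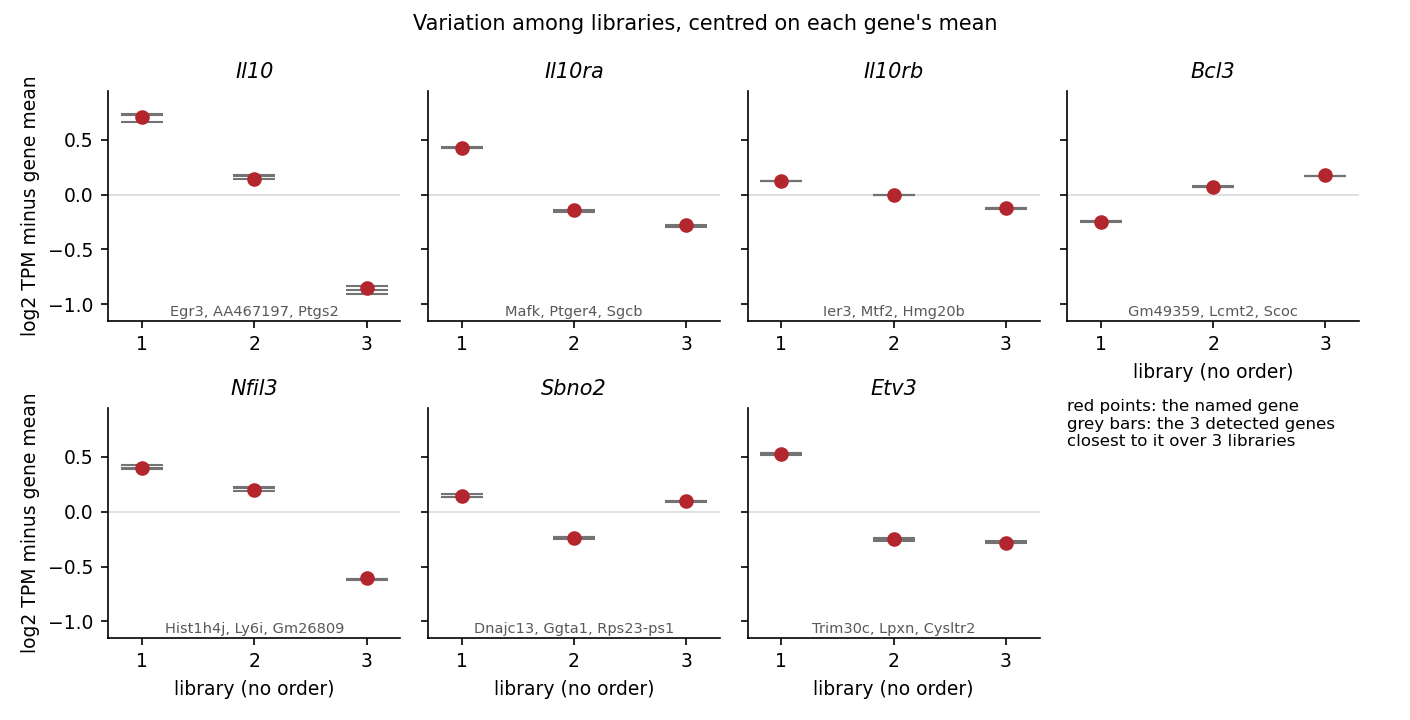
Log2 TPM of each gene in each library minus the gene's mean over 3 libraries (red points), with the 3 closest detected genes as grey bars. Il10 spans 0.70 to -0.85, Il10rb 0.12 to -0.12, and Bcl3 alone among the 7 has its lowest point in library 1.

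On the TPM scale 5 of the 7 genes (Il10, Il10ra, Il10rb, Nfil3 and Etv3) had their highest value in library 1 and their lowest in library 3, a course that 32.2% of all detected genes followed. The protein-coding share of TPM had the same order of libraries. On the protein-coding scale 3 of the 7 kept this course (Il10, Il10ra and Nfil3), beside 11.1% of detected genes. There Etv3 was lowest in library 2, at 277.6, 181.0 and 187.5, and Il10rb was nearly flat, at 329.8, 339.6 and 329.4. Sbno2 moved from highest in library 1 to highest in library 3, at 45.4, 39.0 and 52.0. The order of the libraries was thus the same on both scales for Il10, Il10ra, Nfil3 and Bcl3, and differed between them for Il10rb, Etv3 and Sbno2.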

How the data were processed

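Total RNA-seq of the cytosolic fraction was deposited for 3 libraries of 1 group. Per the file headers and notes, expected counts and TPM per gene and transcript, and each transcript's percent of its gene's TPM, were made by the authors from transcriptome alignments (mm10, GENCODE M21). A second transcript table, with estimated counts and TPM, was made from reads. Programs and strand setting: not given in the sources used here. Members and gene lists were chosen with earlier results of these data known. Named genes are all members, the 2 highest and 2 lowest of each list, the genes of 12 ratios, and the 3 closest to each member. Means, SD, log2 ratios and distances were computed from deposited TPM without a pseudocount. Variation between libraries was tested on expected counts, rounded to whole numbers, with edgeR 4.0.16 under R 4.3.3: TMM scaling, filterByExpr, trended dispersion, intercept-only fit, residual deviance against chi-square, Benjamini-Hochberg over 12256 genes, threshold 0.05. The test was first run on counts simulated from the model it assumes, which cannot show how it behaves where real genes depart from that model. P-values measure how far a gene's spread between these 3 libraries exceeds that usual for genes of its abundance. Such an excess may be technical. Depth ranged from 40730514 to 70484996 expected counts. Alternatives changed the scaling, filter, dispersion, table, pseudocount, detection threshold and libraries. Figures and sums used Python 3.11.15, pandas 2.3.3, numpy 2.4.6 and matplotlib 3.10.9. Protein sequences and promoters of Il10, Il10ra and Il10rb were not used here; 2 list genes are not reported here.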

Additional observations from a re-analysis of the deposited data

How the results depend on the processing

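Detection of all 7 genes held at 0.5 TPM, on the protein-coding scale, in the second table and without any 1 library; at a threshold of 5 TPM in all libraries 5 of the 7 passed, and Il10 and Nfil3 did not. Of the recomputed ratios between genes, 65 moved by less than 1 SD, 6 moved further and 1 reversed. Leaving out 1 library cannot move a mean of 3 by as much as 1 SD, so those values could only stay or reverse. The 6 that moved and the 1 that reversed all came from expected counts, with which only 5 ratios moved by less than 1 SD. With expected counts in place of TPM, and so without a length correction, the log2 ratio was -0.064 for Il10ra to Il10rb, -4.84 for Il10 to Il10ra, -4.64 for Nfil3 to Etv3, -0.95 for Sbno2 to Sbno1, 5.18 for Etv3 to Erf and -4.06 for Bcl3 to Nfkbiz, and Nfil3 to Tef reversed to -0.60. Leaving out 1 library gave 0 to 1 of the 7 genes called variable and 82 to 119 of all genes, in place of 240; fewer libraries enter these fits. With other scalings, dispersions, filters or the second table's counts the edgeR adjusted p of Il10 was 0.0148 to 0.0467. Levels were 2.95 to 56.5 TPM in the second table and 17.7 to 332.9 on the protein-coding scale; the cause of the former was not tested. No paired analysis was possible because all libraries belong to 1 group. Il10 rested on 264 to 711 counts per library, the fewest of the 7 genes, which limits how finely its differences between libraries can be read.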
